A study of Mus musculus with 19 samples.

Results

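The genes described here encode the proteins of the cytosolic ribosome in mouse. They were chosen by symbol: names of the form Rpl or Rps followed by a number and at most 1 further letter a, l or x, together with Rplp0, Rplp1, Rplp2 and Rpsa, and without any symbol that marks a pseudogene. The rule found 82 genes among 51912 rows of the table that compares non-small cell lung cancer (NSCLC) organoids with normal lung organoids. It found 81 genes among 24421 rows of the table that compares immunotherapy-resistant with immunotherapy-sensitive NSCLC organoids, and 81 genes stand in both. Rpl32l, which GENCODE annotates as a processed pseudogene within the span of Map7, met the rule by its name and stands in the first table alone. GENCODE also annotates Rps4l, which stands in both tables, as a transcribed processed pseudogene.

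Organoids are 3-dimensional cell cultures. Bulk RNA sequencing measured 4 NSCLC and 3 normal lung libraries in 1 table, and 9 resistant and 3 sensitive NSCLC libraries in the other, and the series title concerns collagens made by cancer cells as a barrier in acquired resistance. The labels used here name the tissue and the response group but no strain, genotype, age, drug or dose, and they do not state whether each library is a culture or animal of its own. The p-values then measure the spread between these libraries alone, which may be technical. Each table was fitted on its own, so no level is tested across tables.

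The cytosolic ribosome joins a small subunit, which reads the mRNA, to a large subunit, which forms the peptide bond. Its proteins are needed in near-equal amounts, and their mRNAs share a pyrimidine-rich 5′ end, the TOP motif, through which mTOR signalling controls their translation. MYC is a known activator of the genes of ribosome production. Mouse ribosomal protein genes have left many processed pseudogenes in the genome, intronless copies of the mRNA that can be near-identical to it, so that a short read may match the gene and its copy equally well.

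The start sites of 5 of these genes show the pyrimidine run, which is printed because the family is known for it. The 5 were picked from the starts that have such a run. Each line runs 5′ to 3′ from 40 bases before to 25 bases after the start in RefSeq's GRCm38.p6 annotation, with the run in capitals. The windows lie at chr2:26910767-26910831 (plus strand) for Rpl7a, chr16:33056442-33056506 (plus) for Rpl35a, chr7:4792925-4792989 (plus) for Rpl28, chr7:141447611-141447675 (plus) for Rplp2 and chr4:86857343-86857407 (minus) for Rps6.
Rpl7a: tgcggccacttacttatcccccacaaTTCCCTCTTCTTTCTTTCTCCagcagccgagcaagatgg
Rpl35a: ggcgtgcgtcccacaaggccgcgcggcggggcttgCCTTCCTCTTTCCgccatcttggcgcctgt
Rpl28: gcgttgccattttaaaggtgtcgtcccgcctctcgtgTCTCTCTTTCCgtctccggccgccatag
Rplp2: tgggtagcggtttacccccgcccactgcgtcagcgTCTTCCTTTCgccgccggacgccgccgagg
Rps6: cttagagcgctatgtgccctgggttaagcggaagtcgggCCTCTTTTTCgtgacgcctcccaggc
The runs are 21, 13, 11, 10 and 10 bases long in the order of the lines.

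Start sites were found in that annotation for 61 of the genes, with 73 starts in all. A run of 8 or more C or T on the transcribed strand, reaching into the stretch from 15 bases before to 20 bases after the start, was present at 33 of the 73 starts (45.2%), against 19% of all 32851 starts. In the wider window, from 250 bases before to 50 after the start and on either strand, CCGGAAG stood at 35.6% of the starts of ribosomal protein genes and 8.86% of all starts. GGGCGG stood at 57.5% against 35.7%, AAGATGGC at 9.59% against 2.75%, the E-box CACGTG at 11% against 7.15%, and TATAAA at 9.59% against 13.6%. These shares describe letters in a window and say nothing of binding.

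Coding stretches show how close the copies come. The first 120 coding bases of a member were set beside the best matching stretch, without gaps, of 1 copy (GENCODE annotation, mm10). That copy was the matched annotated pseudogene with the most counts in normal libraries. Bases in which the copy differs are in capitals. The 4 pairs were picked to show an identical copy, a copy 1 base apart that was counted often, one 1 base apart that was hardly counted, and one further apart. Rpl37 lies at chr15:5116645-5119140 (plus strand) and its copy Rpl37rt at chr5:115102923-115110268 (minus), Rpl3 at chr15:80077791-80091868 (minus) and Rpl3-ps1 at chrX:13202571-13203780 (plus), Rps23 at chr13:90922958-90924950 (plus) and Gm10689 at chr8:25454273-25454704 (plus), and Rpl32 at chr6:115805505-115808747 (minus) and Gm7266 at chr1:144312032-144312436 (minus).
Rpl37: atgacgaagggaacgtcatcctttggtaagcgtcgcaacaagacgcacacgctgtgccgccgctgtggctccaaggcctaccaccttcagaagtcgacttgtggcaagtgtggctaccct
Rpl37rt: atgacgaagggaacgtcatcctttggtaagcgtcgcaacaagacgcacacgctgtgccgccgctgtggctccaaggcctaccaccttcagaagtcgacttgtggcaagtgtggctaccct
Rpl3: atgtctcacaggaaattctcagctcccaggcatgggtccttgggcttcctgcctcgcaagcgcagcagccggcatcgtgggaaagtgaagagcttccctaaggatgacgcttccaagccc
Rpl3-ps1: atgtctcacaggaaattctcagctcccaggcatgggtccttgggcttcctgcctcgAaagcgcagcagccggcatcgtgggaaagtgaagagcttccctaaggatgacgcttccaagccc
Rps23: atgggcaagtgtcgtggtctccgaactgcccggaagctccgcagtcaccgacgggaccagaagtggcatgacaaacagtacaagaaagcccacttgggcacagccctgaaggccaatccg
Gm10689: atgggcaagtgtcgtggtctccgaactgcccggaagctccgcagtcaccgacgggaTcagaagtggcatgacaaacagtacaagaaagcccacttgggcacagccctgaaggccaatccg
Rpl32: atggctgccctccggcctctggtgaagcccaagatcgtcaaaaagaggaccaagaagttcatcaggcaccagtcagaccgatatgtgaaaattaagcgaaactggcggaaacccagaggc
Gm7266: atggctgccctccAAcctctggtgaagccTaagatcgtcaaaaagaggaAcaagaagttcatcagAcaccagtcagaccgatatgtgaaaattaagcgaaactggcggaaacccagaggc
The numbers of differences are 0, 1, 1 and 5 in the order of the pairs. Of the 71 members that could be compared in this way, 36 had a copy identical over the stretch and 20 had 1 to 3 differences. For the others the match without gaps was not always in register, so their differences, apart from those of Rpl32 above, are not given. Only 1 copy of each member was compared, so another copy may be closer.

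The counts of these copies differed between the groups. Rpl37rt held 3794, 1706, 1503 and 1870 counts in the 4 NSCLC libraries and 5028, 6391 and 5871 in the 3 normal libraries, although the NSCLC libraries were 122967042 to 154479953 counts deep and the normal libraries 20138197 to 21060762. Rpl3-ps1 held 7649, 7081, 4541 and 4353 counts in NSCLC and 10103, 13676 and 12056 in normal libraries. Gm10689 held 96, 68, 63 and 74 counts in NSCLC and 8, 16 and 12 in normal libraries, and Gm7266 held 34, 35, 29 and 43 in NSCLC and 16, 14 and 19 in normal libraries. Relative to depth, the copies of Rpl37 and Rpl3 thus took far more reads in normal libraries, while those of Rps23 and Rpl32 took few reads in any library.

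Over the whole family the same split held. Rows matched to a member by sequence number 1433 annotated pseudogenes and 14 other rows, for 79 members. The 82 genes' own rows held 5.20% to 7.88% of all counts in NSCLC libraries and 1.89% to 2.19% in normal libraries. The copies held 0.370% to 0.626% in NSCLC libraries and 3.41% to 4.05% in normal libraries. Genes and copies together held 5.58% to 8.51% in NSCLC libraries and 5.30% to 6.24% in normal libraries, so the groups did not overlap in the genes' own share but overlapped in the sum. Of the counts of the family, copies took 6.51% to 7.36% in NSCLC and 64.3% to 64.9% in normal libraries. Pseudogene rows of any gene held 2.72% to 3.36% of counts in NSCLC and 7.75% to 8.63% in normal libraries. Why reads fell to copies in different proportion was not tested, and it cannot be told apart from the groups.

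**Figure D1:**
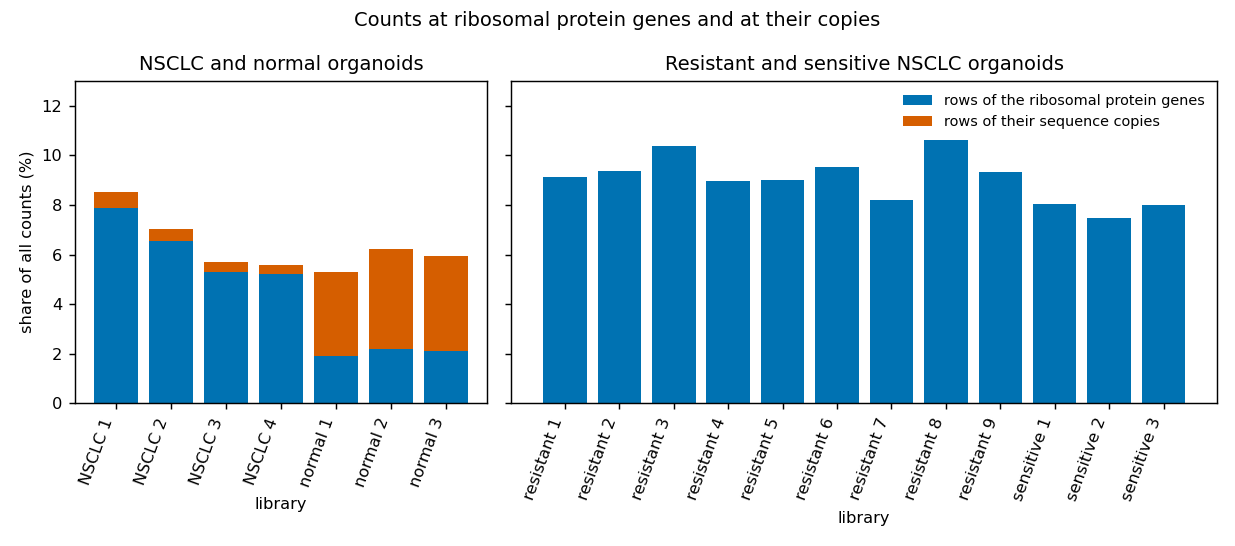
Share of all counts (percent, y axis) in the own rows of the cytosolic ribosomal protein genes and in their sequence-matched copies, stacked for each library of both tables. The own rows hold 5.20% to 7.88% in NSCLC libraries and 1.89% to 2.19% in normal libraries, while genes and copies together overlap between these groups. Copies are barely visible in resistant and sensitive libraries, whose table lists few of them.

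The rows with the most counts among the copies were LOC105244208, a copy of Rps6, Rpl15-ps3 and Gm4294, copies of Rpl15, Gm15500, a copy of Rpl5, and Gm10076, which matches Rpl41 and is annotated as a lincRNA. LOC105244208 held 59609, 62587, 47851 and 49481 counts in NSCLC libraries and 17632, 20114 and 19295 in normal libraries. Its first 120 coding bases are identical to those of Rps6, a stretch shorter than the reads of 150 bases. Sharing over 150 bases varied between members. Of the windows of 150 bases in a member's transcript, 71.0% also occur in an annotated pseudogene for Rpl3, 15.7% for Rpl37 and 0% for Rpl32. For 52 members copies took over 50% of the family count in each normal library, and for 2 (Rpl23a and Rpl24) in each NSCLC library. The copies' share was higher in each normal library than in each NSCLC library for 74 members.

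By their own rows, nearly all cytosolic ribosomal protein genes were higher in NSCLC than in normal organoids. Of the 82 genes 80 had enough counts to be tested, and 72 were higher, 1 (Rpl32l) was lower and 7 had no call (edgeR quasi-likelihood test, Benjamini-Hochberg adjusted p under 0.05). Over all 19932 genes tested, 28.5% were higher and 25% lower. The members' median log2 fold change was 2.06, against 0.11 over all genes. In 75 members each NSCLC library lay above each normal library, and in 1 each lay below, which held for 31.6% and 27.7% of all genes. With counts thinned to the depth of the shallowest library, 71 members were higher and 2 lower of the 78 tested. The authors' deposited table has 72 members higher and 1 lower at the same threshold, and their median log2 fold change there is 2.03.

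With the counts of the copies added to each gene, the differences were smaller and went both ways. Then 37 members were higher, 8 were lower and 35 had no call. The 8 include Rpl32l, an annotated pseudogene without a matched copy, and Rpl24, whose own row was almost uncounted. The median log2 fold change was 0.42, against 0.06 over all genes. In that fit 26.8% of the 19429 genes were higher and 25.3% lower, so the share of members higher (46.2%) still stood above the background and that of members lower below it. All 37 were also higher by their own rows, 29 members that were higher by their own rows lost the call, and 6 (Rpl10, Rpl13a, Rpl21, Rpl23a, Rpl35 and Rpl7a) were higher by their own rows and lower with copies. Without normal library 1 the number higher was 24, without normal library 3 it was 26, and the number lower stayed between 8 and 10 with each library left out. A copy may itself be transcribed, so the sum is not the gene's own expression either: it counts reads that match the gene or a near-identical copy.

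**Figure D2:**
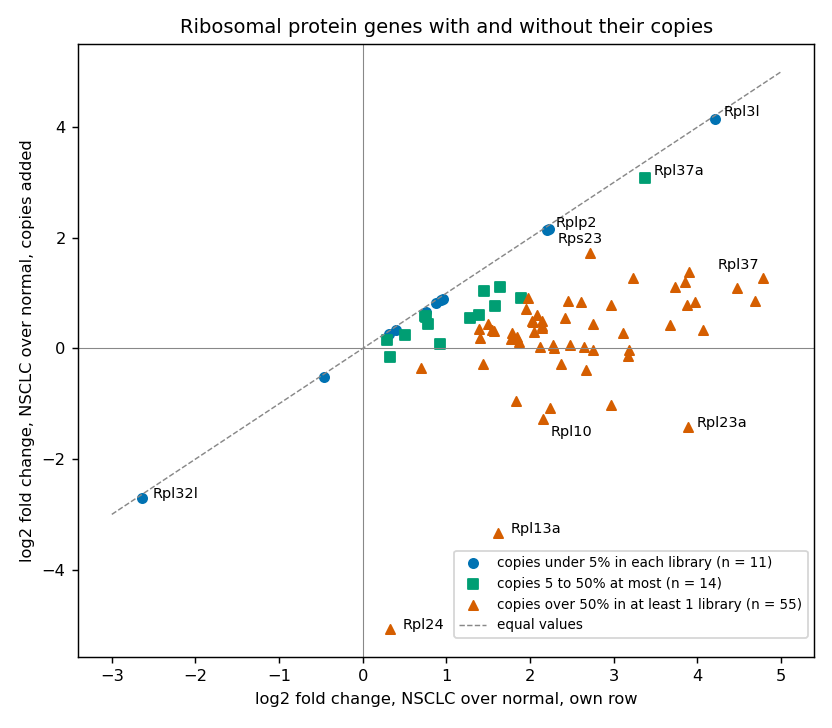
Log2 fold change of each tested member in NSCLC against normal organoids by its own row (x axis) and with the counts of its copies added (y axis), for 11 members whose copies hold under 5% of the family count in each library, 14 with 5% to 50% in at least 1 library and 55 with over 50% in at least 1 library. Medians are 0.88 and 0.82 in the first class, 1.10 and 0.58 in the second, and 2.29 and 0.33 in the third.

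The members with few copied reads give the comparison in which the choice of counting matters least. For 11 members copies held under 5% of the family count in each library, and of these 7 were higher and 1 lower by either way of counting. The 11 include Rpl32l and Rps4l, which are themselves annotated as processed pseudogenes, and Rpl3l, which had very few counts. Rpl32l was the 1 lower, and Rpl3l was among the 7 higher. Their median log2 fold change was 0.88 by own rows and 0.82 with copies. For 55 members copies held over 50% in at least 1 library. There 54 were higher by own rows, while 22 were higher and 7 lower with copies. Across the 80 tested members, the log2 fold change of the own row went with the copies' mean share in normal libraries (Spearman's rho 0.67, Pearson's r 0.63) and the change with copies added went the other way (rho -0.33). These are descriptions across genes that share libraries and normal counts, so they carry no p.

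**Figure D3:**
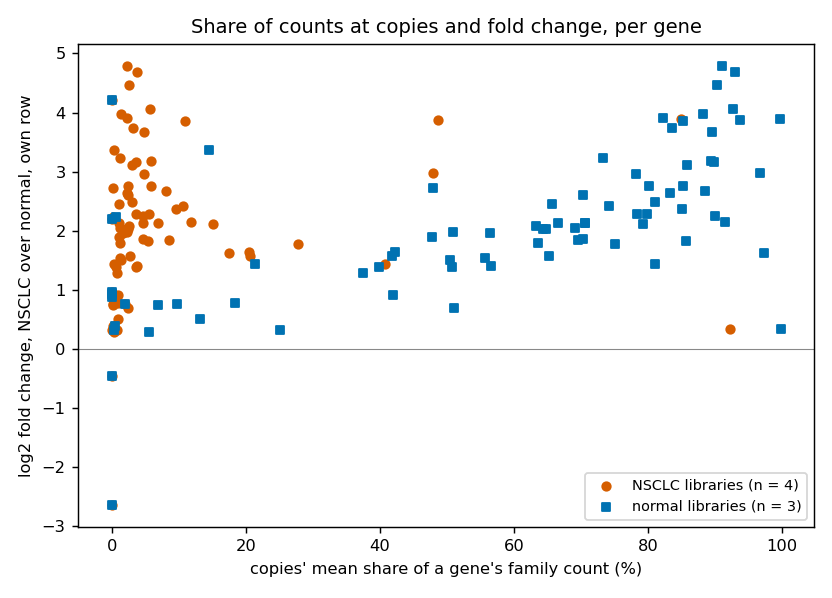
Copies' mean share of the family count (percent, x axis) against the log2 fold change of the member's own row in NSCLC against normal organoids (y axis), with 1 point per member for the NSCLC libraries and 1 for the normal libraries. Shares in NSCLC lie near 0 for most members, and in normal libraries members with larger shares tend to have larger fold changes (Spearman's rho 0.67 over 80 members).

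The low-copy members include proteins of both subunits and of the stalk. Rplp2, an acidic protein of the stalk that recruits elongation factors, had 940.4, 785, 625.4 and 571 CPM (counts per 1000000, scaled by TMM) in NSCLC libraries and 138, 177 and 159 CPM in normal libraries. Its NSCLC libraries all lay above its normal ones (log2 fold change 2.21 ± 0.22 SE, adjusted p = 0.000107), and the change with copies was 2.14. Rps23 lies at the decoding centre, and its annotated pseudogene with the most counts in normal libraries was printed above. Rps23 had 928, 789, 604 and 632 CPM in NSCLC and 138, 174 and 160.3 CPM in normal libraries. It was higher by 2.23 ± 0.21 on the log2 scale (adjusted p = 7.05e-05) and by 2.16 with copies.

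Other low-copy members moved less. Rps3, a protein of the mRNA entry channel, had 1660.4, 1393, 1391 and 1150.2 CPM in NSCLC and 649, 766 and 739 CPM in normal libraries, a log2 fold change of 0.96 ± 0.18 SE (adjusted p = 0.00253). Rpl8 had 1565, 1319.5, 1282 and 1252 CPM in NSCLC and 669, 779 and 760.4 CPM in normal libraries (0.88 ± 0.16, adjusted p = 0.00233). The groups did not overlap in either gene. Rpl22, a large-subunit protein that binds RNA and whose loss mice survive, was higher by 0.76 (adjusted p = 0.00734, and 0.66 with copies). Rpl32 had 653, 526.5, 532 and 494 CPM in NSCLC and 382, 448 and 428 CPM in normal libraries, and its log2 fold change of 0.39 had no call (adjusted p = 0.0574) although the groups did not overlap. The changes of Rplp2 and Rps23 were more than 1 log2 unit above those of these 4 genes, a difference that was not itself tested.

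The 3 largest changes by own rows were in Rpl37, Rpl38 and Rps28, whose copies held over 50% of the family count in normal libraries. Rpl37, a zinc-binding protein of the large subunit, had 858, 651, 642 and 708 CPM in NSCLC libraries and 24.9, 26.4 and 26.2 CPM in normal libraries. Its log2 fold change was 4.79 ± 0.18 SE (adjusted p = 2.64e-06). With copies, which held 1.80% to 3.46% of its family count in NSCLC and 90.4% to 91.4% in normal libraries, it was 1.28 ± 0.17 (adjusted p = 0.000451), with 875, 641, 640.4 and 715 CPM in NSCLC and 272, 309.6 and 306 CPM in normal libraries. The gene stayed higher and its groups apart, at a much smaller size.

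Rpl38, which in mouse embryos is needed for translation of certain Hox mRNAs, changed by 4.69 ± 0.18 by its own row (adjusted p = 2.64e-06) and by 0.86 ± 0.15 with copies (adjusted p = 0.00194). Rps28 changed by 4.48 ± 0.21 (adjusted p = 3.84e-06) and by 1.09 ± 0.17 with copies (adjusted p = 0.000999), and Rps27 by 3.98 ± 0.20 and 0.84 with copies (adjusted p = 0.00381). Rps13 changed by 4.06 by its own row and had no call with copies (0.33, adjusted p = 0.142). Rpl36a changed by 3.90 and 1.37 with copies. Rpl3l, a paralogue of Rpl3 best known from striated muscle, passed the test at a very low level (log2 fold change 4.21 ± 0.95, adjusted p = 0.0063) with 0.442, 0.175, 0.248 and 0.369 CPM in NSCLC and 0.0467, 0 and 0 CPM in normal libraries. It has no matched copy, its 165 counts are nearly all from the deep NSCLC libraries, and 2 normal libraries are at 0, so this fitted fold change depends on the prior count.

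Rpl37a kept a large change by either way of counting. This zinc-binding protein of the large subunit had 686, 563, 555 and 499.7 CPM in NSCLC and 50.7, 56.4 and 59.8 CPM in normal libraries (log2 fold change 3.37 ± 0.17 SE, adjusted p = 4.8e-06). With copies, which held 12.8% to 16.4% of its family count in normal libraries, it was 3.09 ± 0.17 (adjusted p = 7.33e-06). Rps21 changed by 2.72 by its own row and 1.73 with copies.

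Genes that are lower with copies show the opposite extreme. Rpl10, which completes the large subunit and has a role in joining the subunits, had 1207, 988, 795 and 673 CPM in NSCLC and 186, 222 and 211 CPM in normal libraries by its own row (log2 fold change 2.15 ± 0.23 SE, adjusted p = 0.000163). With copies it had 1368, 1077, 869 and 761 CPM in NSCLC and 2221, 2614 and 2572 CPM in normal libraries (-1.28 ± 0.23, adjusted p = 0.00215). Both ways of counting kept the groups apart, in opposite directions. Rpl10-ps1, the annotated pseudogene of Rpl10 with the most counts in normal libraries, held 4482, 3356, 2049 and 2292 counts in NSCLC libraries. In normal libraries it held 11331, 14673 and 13352, and it is identical to Rpl10 over the first 120 coding bases. Rpl10-ps3, a matched copy annotated as protein-coding, held more in normal libraries, at 12308, 15891 and 14567 counts.

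Rpl23a, a protein at the exit of the peptide tunnel, had 59.4, 47.3, 46.0 and 48.0 CPM in NSCLC and 3.13, 3.43 and 3.56 CPM in normal libraries by its own row (log2 fold change 3.89 ± 0.16 SE, adjusted p = 3.19e-06). With its 53 matched copies it had 391, 321, 312 and 282 CPM in NSCLC and 838, 871 and 909 CPM in normal libraries (-1.42 ± 0.15, adjusted p = 0.000176). Copies held 83.1% to 85.7% of its family count in NSCLC and 99.6% in each normal library. Its own row is therefore uncertain in both groups. Rpl13a changed by 1.62 by its own row and by -3.33 ± 0.22 with copies (adjusted p = 1.74e-05). Its own row was low, at 59.5, 45.3, 33.7 and 33.3 CPM in NSCLC libraries. Copies held 96.9% to 97.7% of its family count in normal libraries. Gm45713, annotated as protein-coding, overlaps it on the same strand and held 0 counts. Rpl35 changed by 2.97 and -1.03 (adjusted p = 0.00162), Rpl21 by 2.24 and -1.08 (adjusted p = 0.001) and Rpl7a by 1.83 and -0.95 (adjusted p = 0.00182). With pseudogene rows alone added, Rpl35 was higher (0.55, adjusted p = 0.0221). It was lower only once Gm2000, a matched copy annotated as protein-coding, was added. Rpl24 was almost uncounted, at 0.353, 0.289, 0.331 and 0.558 CPM in NSCLC and 0.374, 0.308 and 0.231 CPM in normal libraries, and its value with copies (-5.07) rests on other rows.

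Among proteins with known roles outside the core, the stalk base Rplp0 had 3578, 2964, 2516 and 2358 CPM in NSCLC and 1574, 1606 and 1789 CPM in normal libraries. It was higher by its own row (log2 fold change 0.78 ± 0.21 SE, adjusted p = 0.0129) and had no call with copies (0.44, adjusted p = 0.105). Rplp1, the other acidic stalk protein, was higher by 1.39 ± 0.25 (adjusted p = 0.00191) and had no call with copies (0.60, adjusted p = 0.0626). Of the stalk genes, Rplp2 alone kept its call by both ways of counting. Rpsa, known also as the laminin receptor precursor, had 1459, 2189.9, 1759.5 and 1805 CPM in NSCLC and 411, 480.3 and 482 CPM in normal libraries, and it was higher by 1.98 ± 0.20 (adjusted p = 0.000104) and with copies by 0.92 ± 0.18 (adjusted p = 0.00364).

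Rps6, the substrate of S6 kinase, had 1434, 1289, 1253 and 1081 CPM in NSCLC and 349.9, 373 and 384 CPM in normal libraries (log2 fold change 1.78, adjusted p = 6.74e-05). With copies its difference was 0.17 and had no call (adjusted p = 0.407). Rpl5 and Rpl11, which bind Mdm2 together with 5S rRNA, were higher by 2.12 (adjusted p = 4.02e-05) and 2.48 (adjusted p = 1.3e-05) by their own rows, and with copies their changes were 0.02 (adjusted p = 0.915) and 0.06 (adjusted p = 0.759). In these 3 genes the direction rests on the rows of the genes alone.

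Rps14, Rps26 and Rps19 are among the genes linked to human blood disorders of the ribosome, and they do not stand for all of them. Rps14 kept its call with copies (1.44 ± 0.18, adjusted p = 0.00031, and 1.03 ± 0.17, adjusted p = 0.00155) and so did Rps26 (1.57, adjusted p = 0.000421, and 0.77, adjusted p = 0.0127). Rps19 did not, at 0.70 (adjusted p = 0.0117) and -0.36 with copies (adjusted p = 0.134). Rpl3, which forms part of the peptidyl transferase centre, had 1393, 1140.4, 999.9 and 800.2 CPM in NSCLC and 257, 335 and 298 CPM in normal libraries (1.87, adjusted p = 0.000295), and 0.12 with copies (adjusted p = 0.653).

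Members were ranked per kilobase of transcript by the sum of the means of both groups. The highest were Rplp0 at 3342 CPM per kb in NSCLC and 1939.6 in normal libraries, Rplp1 at 2703 in NSCLC and 1029.9 in normal libraries, and Rpl41 at 2550.1 in NSCLC and 820.01 in normal libraries. Next came Rpl18 at 2649 CPM per kb in NSCLC and 626 in normal libraries and Rps14 at 2332 in NSCLC and 857 in normal libraries. Among members that passed the filter on low counts, the lowest by that sum were Rpl3l, at 0.299 CPM per kb in NSCLC and 0.0151 in normal libraries, and then Rpl24, Rpl23a and Rpl35. The last 3 have copies with over 50% of the family count in normal libraries. By own rows, the ratio of large to small subunit counts was 1.39 to 1.52 in NSCLC and 1.29 to 1.39 in normal libraries, so the ranges came close but did not overlap. Copies took more of the family count in normal libraries, and the ratio with copies added was not taken.

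Genes named as relatives of a core protein were set against it as log2 ratios per library, with 0.5 CPM added to both. Rps27l, a target of p53, over Rps27 averaged -2.52 ± 0.32 in NSCLC (SD, n = 4) and 1.12 ± 0.24 in normal libraries (SD, n = 3), a difference of -3.63. With 35 regroupings, an exact two-sided permutation test cannot go below 0.0286, and this ratio reached that p, and an adjusted p of 0.0929 over the 13 ratios tested in both tables. Rpl36al over Rpl36a, whose copies held 81.7% to 83.2% of its family count in normal libraries, differed by -2.41 with the same p. No ratio passed in this table (0 of 6). Rps27 is heavily copied in normal libraries, at 87.7% to 88.9% of its family count, while Rps27l itself had 126, 91.5, 95.2 and 120.1 CPM in NSCLC and 73.5, 101 and 86.5 CPM in normal libraries with no call (0.32, adjusted p = 0.146).

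Factors that build or use ribosomes were described by their own rows, without adding their copies, and the lists were chosen with earlier results known. Over all genes tested, 28.5% were higher and 25% lower. Ribosome biogenesis factors were higher in NSCLC in 73 of 80 tested and lower in 0. The list's median log2 fold change was 1.28, against 0.11 over all genes. Nop16, a factor of large-subunit assembly, averaged 60.1 ± 7.70 CPM in NSCLC (SD, n = 4) and 10.96 ± 1.02 CPM in normal libraries (n = 3; log2 fold change 2.45, adjusted p = 9.87e-06). Emg1, a methyltransferase of the small subunit, and Gtpbp4, a GTPase of large-subunit assembly, changed by 1.91 and 1.59. Mitochondrial ribosomal proteins were higher in 58 of 77 and lower in 1, at a median of 0.76. Translation initiation factors were higher in 25 of 34 and lower in 2, and Eif4a1, the RNA helicase of the cap complex, had a log2 fold change of 2.64. RNA polymerase I genes were higher in 11 of 15, and snoRNA host genes in 9 of 11. Of the ribosomal proteins whose symbols fall outside the rule, Fau was higher by 3.74 and Rps3a1 by 1.15.

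Myc averaged 471 ± 138 CPM in NSCLC and 9.19 ± 4.28 CPM in normal libraries (log2 fold change 5.68 ± 0.42 SE, adjusted p = 2.42e-05). Mxd4, a MYC antagonist, was lower (-2.29). Of the 10 listed genes of the MYC family and its partners, 5 were higher, Myc and Mnt among them, and Mxd4 was the 1 lower. Over all genes 28.5% were higher and 25% lower. Mdm2, the ubiquitin ligase that Rpl5 and Rpl11 bind, averaged 61.7 ± 2.71 CPM in NSCLC and 124 ± 3.35 CPM in normal libraries (-1.004, adjusted p = 9.58e-05), and Trp53 was lower by -1.18 (adjusted p = 0.00474). Of the 17 regulators of ribosomal protein mRNA translation, 7 were higher and 2 lower, among them Deptor, an inhibitor of mTOR, which was higher (2.27).

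The cells of the groups also differed in the markers that define them. The summed level of 5 epithelial markers was 6577 to 10100 CPM in NSCLC and 1459 to 1596 CPM in normal libraries, and all 5 were higher. The sum of 4 proliferation markers was 349.9 to 760.1 CPM in NSCLC and 80.2 to 183 CPM in normal libraries, and all 4 were higher. Alveolar type 2 markers summed to 6992 to 13390 CPM in NSCLC and 49000 to 56560 CPM in normal libraries, with 4 of 5 lower. Macrophage markers summed to 23.7 to 46.6 CPM in NSCLC and 1573 to 2724 CPM in normal libraries, with 1 of 5 higher and 4 lower. Fibroblast markers summed to 0.255 to 0.643 CPM in NSCLC and 70.1 to 415 CPM in normal libraries, with 5 of 5 lower, so they were near 0 in NSCLC, with Col3a1 and Dcn at 0 in at least 1 NSCLC library. Both endothelial markers tested were lower. Their part in the differences above was not tested, and in bulk samples fewer cells of a type cannot be told apart from less RNA per cell.

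Between resistant and sensitive NSCLC organoids the ribosomal protein genes differed less. Of 81 genes 77 were tested, and 22 were higher in resistant organoids, 1 (Rps4l) was lower and 54 had no call (28.6% higher, against 19.3% of all 14360 genes higher and 18.2% lower). Rpl10l and Rpl26 were at 0 in all libraries, and Rpl30 and Rpl3l had too few counts. The median log2 fold change was 0.19 over the members and 0.06 over all genes. In 21 members each resistant library lay above each sensitive one, and in 1 each lay below, which held for 14.8% and 16.5% of all genes. The authors' deposited table has 24 members higher and 2 lower of 79 with an adjusted p, at a median of 0.16.

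The own rows of the members held 8.19% to 10.6% of counts in resistant libraries and 7.46% to 8.02% in sensitive libraries, so the groups did not overlap. Copies could be followed less here, as this table lists 23 matched rows, against 1447 in the NSCLC table. These 23 took 0.0499% to 0.0643% of the family count in resistant and 0.0593% to 0.0675% in sensitive libraries. Adding them changed neither count of calls, but reads at copies without a row cannot be seen. By subunit, 7 of 32 small-subunit genes were higher (21.9%) and 1 lower, and 15 of 45 large-subunit genes were higher (33.3%) and 0 lower. The small-subunit share lay near the 19.3% of all genes, and the difference between the subunits was not tested. With each sensitive library left out in turn, 8 of 77, 10 of 78 and 8 of 78 members were higher. Over all genes the numbers were 1800 of 14672, 1921 of 14699 and 1765 of 14737, so the members' share was then not above it. The count thus depends on the 3 sensitive libraries. Without resistant libraries 8 and 9, whose epithelial markers summed to 1360.0 and 1697 CPM against 251 to 993 CPM in the other 7, 14 of 77 members were higher. Over all genes 2536 of 14280 were higher in that fit. Without libraries 6, 8 and 9, 13 of 77 members and 2535 of 14089 genes were higher. In both fits the members' share lay near that of all genes. Rpl3, Rpl10a, Rpl15, Rpl34 and Rps7 were the members higher in each of these fits and with each library left out.

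**Figure D4:**
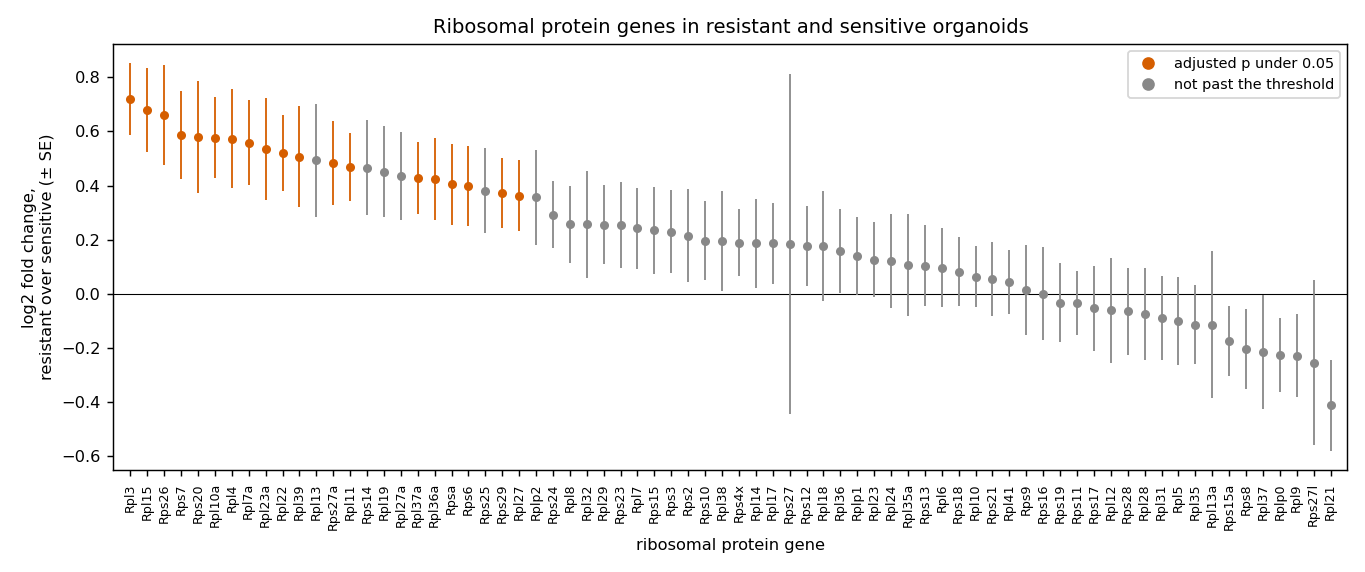
Log2 fold change with its standard error (y axis, genes along the x axis) in resistant against sensitive organoids for 72 of the 77 tested ribosomal protein genes, with those that passed the test in orange. Rpl39l, Rpl34 and Rps4l are left out for scale and the other 2 are not reported here, and Rpl3 is the highest of those shown, at 0.72.

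The largest change among well-expressed members was in Rpl3. It had 1896 CPM in the lowest, 2128 in the median and 2542 in the highest resistant library and 1305, 1204 and 1433 CPM in the sensitive libraries, a log2 fold change of 0.72 ± 0.13 SE (adjusted p = 0.00123). All 9 resistant libraries lay above the 3 sensitive ones. Rpl15, a large-subunit protein, had 963, 1092 and 1494 CPM at the same places in resistant libraries and 689, 671 and 794 CPM in sensitive libraries (0.68 ± 0.16, adjusted p = 0.00467). Rps7, a small-subunit protein, had 1576, 1850.3 and 2622 CPM in resistant libraries and 1236, 1281 and 1356 CPM in sensitive libraries (0.59, adjusted p = 0.0123). Rpl10a had 826, 1043 and 1288 CPM in resistant libraries and 737, 648 and 711 CPM in sensitive libraries (0.58 ± 0.15, adjusted p = 0.00933). These genes did not overlap between the groups.

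Of the other named genes higher in resistant organoids, Rps26 changed by 0.66 (adjusted p = 0.0133), Rpl4 by 0.57 (adjusted p = 0.0255), Rpl22 by 0.52 (adjusted p = 0.0119) and Rpl11 by 0.47 ± 0.13 (adjusted p = 0.0113). Rps6 had 1601, 1864 and 2345 CPM in resistant libraries and 1491, 1338 and 1433 CPM in sensitive libraries (0.40, adjusted p = 0.0487), and Rpsa changed by 0.40 (adjusted p = 0.0475). Both lie close to the threshold. Rpl5 had a log2 fold change of -0.10 (adjusted p = 0.659) and Rps19 of -0.03 (adjusted p = 0.879), while Rps14, at 0.47, did not pass (adjusted p = 0.0517).

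None of the stalk genes passed. Rplp0 had 3361, 4139 and 4866 CPM in resistant libraries and 5047, 4512 and 4960.1 CPM in sensitive libraries, with a log2 fold change of -0.23 and no call (adjusted p = 0.211). Rplp1 had 0.14 (adjusted p = 0.463) and Rplp2 0.36 (adjusted p = 0.128), and in all 3 the groups overlapped. Per kilobase of transcript, Rplp0 was the highest member at 4848 CPM per kb in resistant and 5667 in sensitive libraries, then Rplp1 at 4561 in resistant and 4138 in sensitive libraries.

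Some genes stood apart through their low or uneven counts. Rpl34 had 1.48, 3.66 and 8.02 CPM in the lowest, median and highest resistant library and 0.876, 0.975 and 0.877 CPM in sensitive libraries (log2 fold change 2.11 ± 0.50 SE, adjusted p = 0.00544). Its counts were 32 to 136 in resistant and 13 to 16 in sensitive libraries, whereas in the NSCLC libraries of the other table it averaged 566 CPM. Rpl26, Rpl30 and Rps27 are likewise at 0 or a few counts here, but average 652, 690.0 and 621 CPM in those NSCLC libraries, and Rpl24, near 0 there, averages 800 CPM in resistant and 735 CPM in sensitive libraries. Rpl13a and Rpl23a held 273496 and 370445 counts in all here, against 23921 and 27097 in the NSCLC and normal libraries of the other table. Why these rows hold so few counts in 1 table was not tested, and the Rpl34 result rests on those few reads.

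**Figure D5:**
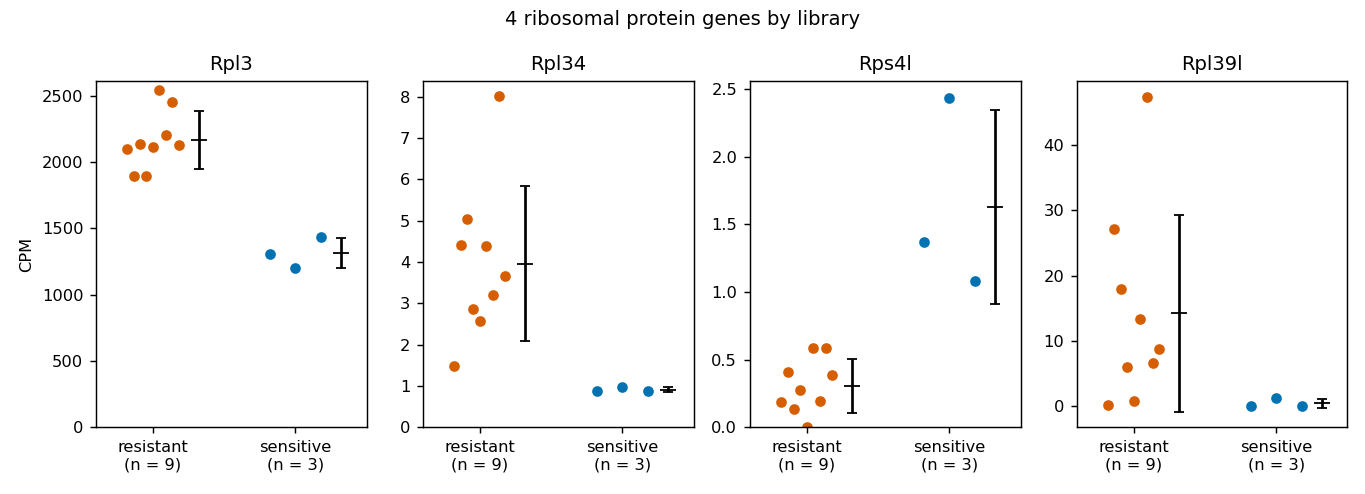
CPM (y axes) by library for Rpl3, Rpl34, Rps4l and Rpl39l in resistant (n = 9) and sensitive (n = 3) organoids, with bars for the mean ± SD. Rpl3 and Rpl34 do not overlap between groups, Rps4l is lower in resistant organoids, and Rpl39l spans 0.0925 to 47.4 CPM within the resistant group.

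Rpl39l, a paralogue of Rpl39 known from male germ cells, had 2, 333, 270, 131, 17, 297, 1197, 112 and 158 counts in resistant libraries and 1, 20 and 0 counts in sensitive libraries. The test called it higher, at a log2 fold change of 5.04 ± 1.69 SE and an adjusted p of 0.0316, but its groups overlapped and the call was lost without sensitive library 1 (adjusted p = 0.111), without sensitive library 3 (0.104) and without resistant libraries 6, 8 and 9 (0.0512). Its log2 ratio to Rpl39 averaged -5.81 ± 2.03 in resistant (SD, n = 9) and -8.64 ± 0.96 in sensitive libraries (SD, n = 3), with an exact two-sided permutation p of 0.0545 (adjusted 0.0929). Resistant libraries 1 and 5 lay near the sensitive ones.

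Rps4l, annotated as a transcribed processed pseudogene and named for its likeness to Rps4x, a core protein of the small subunit, was the only member lower in resistant organoids. It had 4, 5, 2, 6, 0, 13, 5, 10 and 7 counts in resistant libraries and 25, 40 and 16 counts in sensitive libraries (log2 fold change -2.40 ± 0.66 SE, adjusted p = 0.013). Its groups did not overlap. Without sensitive library 2 the call was lost (adjusted p = 0.0886). Its ratio to Rps4x averaged -10.55 ± 0.36 in resistant and -8.98 ± 0.45 in sensitive libraries (adjusted p = 0.0296, and unadjusted p = 0.00455, the lowest possible value in an exact permutation test of 220 regroupings). Rpl3l over Rpl3 gave the same p at -11.69 ± 0.34 in resistant and -10.79 ± 0.32 in sensitive libraries, but with 42 counts of Rpl3l in all its ratio follows the pseudocount. With a pseudocount of 0.1 CPM neither ratio passed.

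Of the genes around the ribosome, Eif4b, a cofactor of the Eif4a helicase, averaged 1112 ± 145 CPM in resistant (SD, n = 9) and 567.5 ± 45.2 CPM in sensitive libraries (n = 3; log2 fold change 0.97, adjusted p = 0.000414). Npm1, a nucleolar chaperone, averaged 2501 ± 518 CPM in resistant and 1305 ± 113 CPM in sensitive libraries (0.94, adjusted p = 0.00244), and Eef1g and Eef2, elongation factors, were higher by 0.88 and 0.55. Eif6, which keeps free large subunits from joining small ones, was lower (-0.92, adjusted p = 0.000892), as was Nop14, a factor of small-subunit assembly (-1.05). As a list, biogenesis factors were higher in 7 and lower in 7 of 81, and mitochondrial ribosomal proteins higher in 7 and lower in 6 of 77, at medians of 0.10 and 0.06. Of all genes tested, 19.3% were higher and 18.2% lower. Of 17 regulators of ribosomal protein mRNA translation 0 were higher and 4 lower, a lower share near that of all genes, including Rheb, the GTPase that activates mTOR (-1.21, adjusted p = 0.00042), and Deptor (-2.63). Myc averaged 843 ± 305 CPM in resistant and 361 ± 26.7 CPM in sensitive libraries (1.22, adjusted p = 0.00682). Of the 9 tested genes of the MYC family and its partners, 2 were higher and 1 lower.

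Markers of other cells moved with the groups here too. Epithelial markers summed to 251 to 1697 CPM in resistant and 4033 to 4514 CPM in sensitive libraries, with 3 of 5 lower. Alveolar type 2 markers summed to 30.3 to 272 CPM in resistant and 648 to 1542 CPM in sensitive libraries, with 3 of 5 lower. Endothelial markers summed to 0.370 to 13.2 CPM in resistant and 5.47 to 11.95 CPM in sensitive libraries, with 0 of 3 called. Fibroblast markers summed to 62.0 to 939.7 CPM in resistant and 9.99 to 25.8 CPM in sensitive libraries, with 5 of 5 higher. Macrophage markers summed to 202.5 to 1101 CPM in resistant and 1535 to 3556 CPM in sensitive libraries, with 4 of 5 lower. Proliferation markers summed to 252 to 1370.0 CPM in resistant and 128 to 583 CPM in sensitive libraries, with 2 of 4 higher. Their part in the differences was not tested. Members higher in both comparisons by their own rows include Rpl3, Rpl15, Rpl34, Rpl10a, Rpl11, Rpl22, Rps7 and Rps26. Of these Rpl34, Rpl10a, Rpl22 and Rps26 were also higher in NSCLC with copies added, and the other 4 had no call there.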

How the data were processed

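RNA was prepared with a stranded mRNA library kit and read in pairs of 150 bases, per the labels' protocols. The submitters' processing notes name STAR 2.6.0a, DESeq2 1.26.0 and mm10. How reads were counted, and on which annotation, is not given in the sources used here. Deposited files hold the authors' counts: whole-number reads per gene, not normalized. Log2 fold changes and adjusted p-values computed by the authors stand in the same deposited tables. The 19 scaled per-library columns were not used.

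Counts were filtered with filterByExpr and scaled by TMM, and groups compared with edgeR 4.0.16 (R 4.3.3), adjusting over all genes of a table, after tests on simulated counts. CPM is counts per 1000000 of the TMM-scaled library size. Pseudogene rows were matched to members with BLAST 2.17.0 at 80% identity over 50% of the pseudogene transcript, and rows not annotated as pseudogenes at 90% over 80%. Levels per kb use the median length of protein-coding GENCODE transcripts. The SE of a log2 fold change is its size divided by the root of the F statistic. Genes with a shared locus or near-identical copy are uncertain.

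Members, lists and alternatives were chosen with earlier results of these data known. Named members were, per comparison, up to 8 with the largest change in each direction, the paralogue pairs, the 5 highest and lowest per kb, 10 genes with known roles, up to 8 passing in both comparisons and 3 with the largest spread in resistant libraries. From each wider list up to 3 genes with the smallest adjusted p were named. The low-copy members Rps23, Rps3, Rpl8 and Rpl32, together with Rpl37a, Rps21, Rpl21, Rpl7a, Rpl13a, Rpl4, and Rpl26, Rpl30 and Rpl24 across tables, were named after their values were seen. A few members and listed genes enter the counts and are not reported by name here. Total counts were 122967042 to 154479953 in NSCLC, 20138197 to 21060762 in normal, 11988677 to 24462955 in resistant and 15292427 to 18716749 in sensitive libraries.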

Additional observations from a re-analysis of the deposited data

Results flagged for a closer look

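In 80 groups of 4 to 10 libraries, 4 held a library far from the rest by Dixon's 95% critical value, and chance gives about 1 in 20. Rpl11 in NSCLC library 1 stood at 1025.5 CPM and Rpl23a in the same library at 59.385 CPM, above the other 3 NSCLC libraries. Resistant library 8 stood above the other 8 in Rpl23a (2547.3 CPM) and Rps4x (1448.7 CPM).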

How the results depend on the processing

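The calls in the NSCLC comparison changed with the counting and with the scaling. The 72 members higher and 1 lower by own rows became 41 and 7 with pseudogene rows added and 37 and 8 with all copies added. With rows matched by name alone they were 59 and 3. Scaling by the summed member counts, which takes a common shift out, gave 35 and 18 and moved the median log2 fold change of all genes to -1.62. Upper quartile and total counts scaling gave 2 lower, as did the replicate block and thinning. The difference in the members' share of counts, NSCLC minus normal, was 4.17 percentage points, 1.13 with pseudogene rows and 0.874 with all copies. With each library left out, members higher stayed at 72, members lower at 1 to 2, and the share difference at 3.62 to 4.52. With pseudogene rows the counts ran from 27 to 42 higher and 6 to 9 lower, and with all copies from 24 to 39 higher and 8 to 10 lower, the lowest without normal library 1. With all copies, upper quartile scaling gave 26 higher and 11 lower, total counts 27 and 9, and the replicate block 27 and 9. The 8 lower members were lower in each of the 12 settings run with all copies added, and 24 of the 37 were higher in each. With pseudogene rows alone, 1 of these 8, Rpl35, was instead higher (0.55, adjusted p = 0.0221).

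In the resistant comparison 22 higher and 1 lower became 9 and 7 under summed member counts, 14 higher with no filter on low counts and 8 higher with the replicate block. With no filter 14 of 79 members stood against 2615 of 19579 genes. With the block 8 of 77 stood against 1914 of 13437, a share of members below that of all genes. DESeq2 gave 26 higher and 2 lower. Without resistant libraries 8 and 9 they were 14 and 2, and without 6, 8 and 9 they were 13 and 2. Leaving out each library gave 8 to 24 higher, the lowest without sensitive library 1 or 3, 0 to 2 lower, and 1.38 to 1.71 for a share difference of 1.56 points. Paralogue ratios passing numbered 2 in this comparison, 0 with a pseudocount of 0.1 and 0 to 2 with each library left out, and 0 to 0 in NSCLC. Same-numbered libraries did not pair: their deviations correlated at -0.0147, -0.0153 and -0.0419 in the NSCLC table and 0.207, 0.155 and -0.12 in the other, and 0 of 3 and 1 of 3 correlated best with their own number, so the replicate block concerns only that number.

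Single genes reversed direction, on the log2 scale, as follows. Summed member counts gave in NSCLC Rpl13a -0.13, Rpl15 -0.30, Rpl22 -0.996, Rpl24 -1.37, Rpl32 -1.34, Rpl41 -0.10, Rpl7 -1.43, Rpl8 -0.86, Rplp0 -0.97, Rplp1 -0.37, Rps14 -0.30, Rps19 -1.05, Rps26 -0.18, Rps27l -1.41, Rps3 -0.78 and Rps4x -0.84, and in resistant Rpl10 -0.13, Rplp1 -0.066, Rps12 -0.025, Rps27 -0.011 and Rps4x -0.0099. Rows matched by name gave Rpl10 -1.17, Rpl23a -0.94, Rpl7a -0.028 and Rps19 -0.34. Pseudogene rows gave Rpl10 -0.88, Rpl13a -3.33, Rpl15 -0.27, Rpl21 -1.08, Rpl23a -1.42, Rpl24 -5.07, Rpl7 -0.15, Rpl7a -0.95, Rps19 -0.36 and Rps7 -0.024. All copies gave Rpl10 -1.28, Rpl13a -3.33, Rpl15 -0.27, Rpl21 -1.08, Rpl23a -1.42, Rpl24 -5.07, Rpl35 -1.03, Rpl7 -0.15, Rpl7a -0.95, Rps19 -0.36 and Rps7 -0.025. In resistant, Rps19 was 0.0074 under upper quartile, 0.026 under total counts and 0.15 under the replicate block. With each library left out Rpl10 ran from -0.022 to 0.13, Rps19 from -0.084 to 0.0036, Rps27 from -0.28 to 0.55, Rpl22l1 over Rpl22 from -0.23 to 0.097 and Rpl36al over Rpl36a from -0.088 to 0.096. The causes were not tested beyond the counting itself.

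Depth was lower in each normal than in each NSCLC library and 3 libraries stand in the normal and in the sensitive group. Reads shared with a copy cannot be assigned, so neither way of counting gives a gene's own level. The tables list different rows and were not compared by test.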
